A study of Sus scrofa and Rattus norvegicus with 8 samples.

Results

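The class IIa histone deacetylases, the MEF2 transcription factors and the salt-inducible kinases (SIK) were described in pig backfat. The members were HDAC4, HDAC5, HDAC7, HDAC9, MEF2A, MEF2C, MEF2D, SIK1, SIK2 and SIK3, found by their pig gene symbols. This gave 10 genes of the 25880 Ensembl gene IDs in the pig table, of which 14844 were named nuclear genes. The study built an atlas of transcripts over pig tissues and compared fat across animal species. Adult female Bama pigs aged 2 years gave the 6 libraries. Each was made from the backfat's upper layer, for which the study's methods give 6 animals. The labels give all 6 the same breed, sex, age and tissue, and name no treatment, allele or genotype, so no pair of conditions could be compared and the levels of the genes were compared within libraries. Backfat was taken as bulk tissue, so a lower level can mean fewer cells of a type or less RNA per cell, which cannot be told apart here.

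Class IIa deacetylases are corepressors that have little deacetylase activity of their own. They bind MEF2 on DNA and bring in the NCoR complex with HDAC3, which keeps MEF2 target genes low. Salt-inducible kinases, which the kinase LKB1 switches on and protein kinase A switches off, phosphorylate class IIa deacetylases and the CRTC coactivators of CREB. The phosphorylated proteins are held in the cytoplasm by 14-3-3 proteins. In fat cells hormones that raise cyclic AMP act on this chain, and the insulin-responsive glucose transporter gene SLC2A4 is a known MEF2 and class IIa target.

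Levels are given in TPM, a transcript abundance corrected for transcript length in which all genes of a library share one fixed total. The part of this total held by named nuclear genes was 24.1% to 26.3% in replicates 1, 2, 3 and 6 but 3.34% in replicate 4 and 4.73% in replicate 5. The remainder lay mainly in unnamed IDs, which held 96.5% and 95.0% of the TPM in replicates 4 and 5. Each library was therefore also rescaled so that its named nuclear genes summed to 1000000, called rescaled TPM below. The ratio of any 2 genes of one library is the same on both scales. The adipocyte markers were high in every library, with a summed rescaled TPM of 20584 to 36791 over 8 of 8 markers, and FABP4 was the highest of them. Skeletal muscle markers summed to 2.87 to 15.8, with 5 of 8 found and ACTA1 the highest at a mean of 1.84. Stromal markers summed to 5208 to 15393, those of smooth muscle and pericytes to 626 to 1235, of macrophages to 215 to 599 and of lymphoid cells to 57.0 to 152. The files keep no read numbers, so the depth behind each value is unknown and errors are the spread over libraries.

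All 10 genes were detected at over 0.1 deposited TPM in all 6 libraries, which held for 67.2% of the named nuclear genes. Over 1 deposited TPM in all 6 libraries stood 4 of the 10, HDAC5, MEF2A, MEF2C and SIK2, against 30.9% of the named nuclear genes. By mean rescaled TPM the order was SIK2, MEF2A, MEF2C, HDAC5, HDAC7, MEF2D, HDAC9, SIK3, SIK1 and HDAC4.

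**Figure D1:**
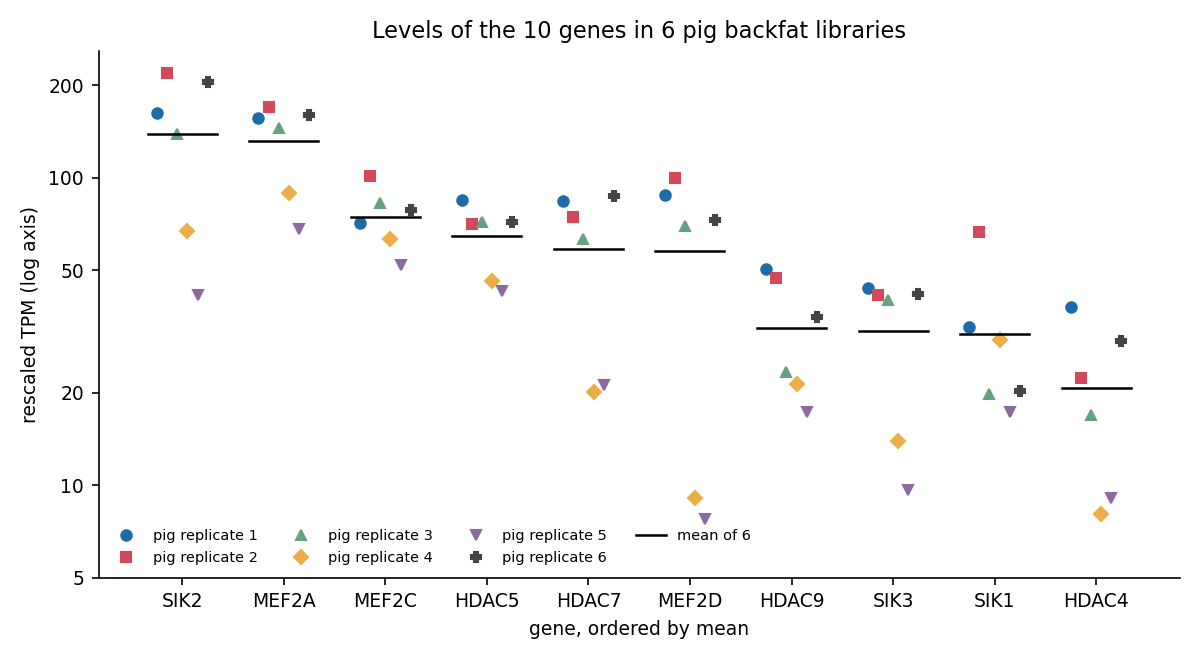
Rescaled TPM (vertical log axis) of each of the 10 genes (horizontal axis, ordered by mean) in pig replicates 1 to 6, 1 point per library, with a black bar for the mean of 6. MEF2D showed the widest gap, with replicates 4 and 5 at 9.11 and 7.79 and the other libraries from 69.5 to 99.4, while SIK1 stood apart upward in replicate 2 at 66.4.

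SIK2, the kinase that phosphorylates class IIa deacetylases and CRTC proteins in fat cells, was the highest of the 10 genes. Its deposited TPM was 36.2 to 54.0 in replicates 1, 2, 3 and 6 and 2.24 and 1.96 in replicates 4 and 5. Its rescaled TPM in replicates 1 to 6 was 163, 219, 138, 67.1, 41.5 and 205, a mean of 139 ± 72.0 (SD, n = 6). SIK2 was the highest of the 10 in replicates 1, 2 and 6, second in replicates 3 and 4 and in rank 4 in replicate 5. SIK3, the long and broadly expressed relative, had a rescaled TPM of 43.7, 41.6, 39.9, 13.96, 9.66 and 41.9, a mean of 31.8 ± 15.6 (SD, n = 6). In deposited TPM SIK3 was 10.03 to 11.03 in replicates 1, 2, 3 and 6 and 0.466 and 0.457 in replicates 4 and 5. SIK3 was the most even of the 10 genes in replicates 1, 2, 3 and 6, with a CV (SD divided by mean) of 0.0369, and lay below that range in replicates 4 and 5. SIK2 was 3.46-fold to 5.26-fold above SIK3, in all 6 libraries.

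SIK1, the inducible member whose own gene is a known CREB target, had a rescaled TPM of 32.7, 66.4, 19.8, 29.6, 17.3 and 20.2, a mean of 30.998 ± 18.4 (SD, n = 6). Replicate 2 was the high one, at 66.4 against 17.3 to 32.7 in the other 5 libraries. The levels in replicates 4 and 5, 29.6 and 17.3, overlapped those of the other libraries, 19.8 to 66.4. The ratio of SIK2 to SIK1 ran from 2.27-fold in replicate 4 to 10.1-fold in replicate 6. In deposited TPM SIK1 was 5.18 to 15.995 in replicates 1, 2, 3 and 6 and 0.988 and 0.821 in replicates 4 and 5.

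Because SIK1 is a cyclic AMP responsive gene, the promoters of the 10 genes were searched for the cyclic AMP response element (CRE). Each promoter was the window of 250 bases before to 50 bases after the 5′ end of the RefSeq model on Sscrofa11.1, and both strands were read. The 5-letter CRE core is TGACG, or CGTCA when it lies on the other strand, and the full CRE is TGACG followed directly by TCA, so every full CRE also holds the core. MEF2A has a partial model, so its window may not hold the true start. A single window was read per gene, so other starts were not searched, and HDAC9 and MEF2C have 50 and 49 transcripts. The core was found in the windows of all 3 kinases and in none of the other 7 windows, and it occurred in 24.3% of the 19556 pig promoters of the same length. That share was not matched for GC content, which was 76.3% to 80.0% in the windows of the kinases. The windows of HDAC4, HDAC7 and MEF2D, without the core, had 81.3%, 77.7% and 75.7%. The full CRE was in 0 of the 10 and in 2.26% of all promoters, and the 10-letter MEF2 motif was in 0 of the 10 and in 2.87% of all promoters. The 7 matches are printed 5′ to 3′ on the strand of the gene, with 10 bases on each side and the core in capitals. The matches are letters in a window, not measured binding. The 5 bases of each core begin 239, 159 and 148 bases before the start of SIK1, 19 and 6 before that of SIK2, and 171 and 96 before that of SIK3.
SIK1, chr13:206466027-206466051, minus strand: tcagcgcgcgCGTCAgagccgccag
SIK1, chr13:206465947-206465971, minus strand: gtcgctctggCGTCAaaaggacgtc
SIK1, chr13:206465936-206465960, minus strand: gtcaaaaggaCGTCAatggggatgt
SIK2, chr9:39368526-39368550, plus strand: cccggcccccTGACGtcggcgcacg
SIK2, chr9:39368539-39368563, plus strand: cgtcggcgcaCGTCAgcggcggcgc
SIK3, chr9:44471846-44471870, minus strand: ctctgggcagTGACGcgcgtcggca
SIK3, chr9:44471771-44471795, minus strand: cctcccggagTGACGtccgccgctc

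The RefSeq models of the kinases lie at chr13:206454695-206465802 for SIK1 (ENSSSCG00000035037, 14 exons), chr9:39368555-39483519 for SIK2 (ENSSSCG00000032941, 16 exons) and chr9:44223227-44471689 for SIK3 (ENSSSCG00000015071, 25 exons). SIK2 overlaps PPP2R1B and a second gene on the opposite strand. The libraries were stranded, but no source used here says whether the quantification used the strand. Of the 31-base words of its longest transcript, the word length that Kallisto uses by default, SIK2 shared 0 with transcripts of other genes. SIK1 shared 19 of 4433 and SIK3 40 of 5970, with no member of the 10 among the partners.

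HDAC5, a class IIa deacetylase best studied in heart and muscle, was the highest of its family by mean rescaled TPM over all 6 libraries. HDAC7 was the higher by mean deposited TPM, 13.4 against 13.2, and by mean rescaled TPM without replicates 4 and 5, 77.3 against 74.6. The deposited TPM of HDAC5 was 17.0 to 21.2 in replicates 1, 2, 3 and 6 and 1.55 and 2.03 in replicates 4 and 5. Its rescaled TPM was 84.7, 70.5, 71.6, 46.3, 42.9 and 71.6, a mean of 64.6 ± 16.4 (SD, n = 6). HDAC5 was the steadiest deacetylase of the family, with replicates 4 and 5 below the other libraries by less than for the other 3. HDAC7, which is known from endothelial cells and developing lymphocytes, had a rescaled TPM of 84.0, 74.4, 63.4, 20.1, 21.1 and 87.4, a mean of 58.4 ± 30.4 (SD, n = 6). HDAC5 and HDAC7 lay close together in replicates 1, 2, 3 and 6, with log2 ratios of HDAC5 to HDAC7 from -0.29 to 0.17, and HDAC5 was the higher by up to 2.30-fold in replicates 4 and 5. In deposited TPM HDAC7 was 16.6 to 23.02 in the former and 0.671 and 1.00 in the latter. The endothelial markers, 7 of 9 found, summed to 1213 to 1508 rescaled TPM in replicates 1, 2, 3 and 6 and to 746 and 916 in replicates 4 and 5. PECAM1 made up most of these sums. In replicates 4 and 5 PECAM1, CDH5, KDR, ERG and TIE1 lay below the other libraries, and TEK and EGFL7 overlapped them. The part of these markers in the HDAC7 levels was not tested.

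HDAC9, a regulator of fat cell differentiation in culture, had a rescaled TPM of 50.4, 47.1, 23.4, 21.4, 17.3 and 35.3, a mean of 32.5 ± 13.98 (SD, n = 6). Replicate 3 lay near replicates 4 and 5 for this gene. In deposited TPM HDAC9 was 6.12 to 12.6 in replicates 1, 2, 3 and 6 and 0.715 and 0.818 in replicates 4 and 5. HDAC4, the deacetylase that carries cyclic AMP signals to gluconeogenic FOXO targets in liver, was the lowest of the 10 genes by mean. Its rescaled TPM was 38.0, 22.3, 17.0, 8.06, 9.08 and 29.5, a mean of 20.6 ± 11.7 (SD, n = 6). Its deposited TPM was 4.44 to 9.49 in replicates 1, 2, 3 and 6 and 0.269 and 0.4299 in replicates 4 and 5. HDAC4 had rank 9 or 10 of 10 in every library. HDAC5 was 2.23-fold to 5.74-fold and HDAC7 2.21-fold to 3.74-fold above HDAC4, with no library in the opposite order.

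The 4 deacetylase genes lie on different chromosomes, HDAC4 at chr15:138378237-138657266 (ENSSSCG00000024777, 26 exons), HDAC5 at chr12:19077910-19119463 (ENSSSCG00000017366, 27 exons), HDAC7 at chr5:78150554-78186051 (ENSSSCG00000027859, 27 exons) and HDAC9 at chr9:87164400-88192803 (ENSSSCG00000015368, 28 exons). HDAC7 overlaps SLC48A1 on the opposite strand. HDAC9 overlaps an uncharacterised gene on its opposite strand. HDAC4 and HDAC5 share 2 of their 31-base words, of 8485 in HDAC4 and 4020 in HDAC5. With transcripts of all other genes HDAC5 shares 56 words, HDAC9 4 of 16552 and HDAC7 0.

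Within the class IIa family, HDAC5 held 32.0% to 40.8% of the summed TPM in replicates 1, 2, 3 and 6 and 48.3% and 47.5% in replicates 4 and 5. HDAC7 held 32.7% to 39.0% in the former and 21.0% and 23.4% in the latter. HDAC9 and HDAC4 kept overlapping shares, 13.3% to 22.3% and 8.41% to 14.8% over all 6. These shares are ratios within a library and do not depend on the scale. Of the summed TPM of all 11 histone deacetylase genes, the 4 class IIa genes held 47.8%, 42.3%, 40.7%, 29.9%, 28.9% and 44.1% in replicates 1 to 6. HDAC2, a class I enzyme, was the highest of the other 7 deacetylases at 101 ± 7.78 rescaled TPM (SD, n = 6), and HDAC11 the lowest at 10.8 ± 2.70 (SD, n = 6). In replicates 4 and 5 HDAC6 was 11.6 and 7.16, against 20.4 to 30.2 in the other libraries. HDAC2 overlapped the other libraries in replicates 4 and 5, at 105 and 98.5, and HDAC11 lay above them, at 14.3 and 13.8 against 8.17 to 10.6. In mean log2(rescaled TPM + 1), replicates 4 and 5 differed from the other libraries by -1.25 for HDAC6 and -0.64 for HDAC3. The difference was -0.56 for HDAC10, -0.53 for HDAC1 and -0.37 for HDAC8, near the median of -0.46 over 10189 named nuclear genes.

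MEF2A was the highest of the MEF2 factors, DNA-binding proteins of the MADS-box class that activate muscle and metabolic genes. Its deposited TPM was 38.0 to 42.2 in replicates 1, 2, 3 and 6 and 2.98 and 3.22 in replicates 4 and 5. Its rescaled TPM was 157, 169.8, 145, 89.3, 68.0 and 160.3, a mean of 131 ± 42.2 (SD, n = 6). MEF2A had rank 1 or 2 of the 10 genes in every library. MEF2C, which is also needed in heart, vessels and lymphocytes, had a rescaled TPM of 71.0, 101, 82.5, 63.2, 51.9 and 78.4, a mean of 74.7 ± 16.9 (SD, n = 6). Its deposited TPM was 17.7 to 24.3 in replicates 1, 2, 3 and 6 and 2.11 and 2.46 in replicates 4 and 5. With a CV of 0.227, MEF2C varied least of the 10 genes over the 6 libraries.

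MEF2D, the third factor of the family, had a rescaled TPM of 87.5, 99.4, 69.5, 9.11, 7.79 and 72.8, a mean of 57.7 ± 39.6 (SD, n = 6). Its deposited TPM was 18.2 to 24.0 in replicates 1, 2, 3 and 6 and 0.304 and 0.369 in replicates 4 and 5. MEF2D thus stood near MEF2C in 4 libraries and far below it in the other 2. Its share of the family TPM was 23.4% to 27.8% in replicates 1, 2, 3 and 6 and 5.64% and 6.10% in replicates 4 and 5, and the share of MEF2C was 22.5% to 27.8% and 39.1% and 40.7%. MEF2A kept 45.9% to 55.3% of the family in all 6. MEF2A was 1.71-fold to 9.80-fold above MEF2D, with the 2 largest ratios in replicates 4 and 5.

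The MEF2 models lie at chr1:138398270-138508639 for MEF2A (ENSSSCG00000028771, 10 exons, a model that RefSeq marks as partial), chr2:96122407-96296927 for MEF2C (ENSSSCG00000014149, 11 exons) and chr4:93581563-93616980 for MEF2D (ENSSSCG00000006482, 12 exons). MEF2C and MEF2D share 35 of their 31-base words, of 6412 in MEF2C and 6119 in MEF2D. With all other genes MEF2D shares 40. MEF2A shares 0. MEF2C overlaps an uncharacterised gene on its opposite strand. MEF2B, the remaining MEF2 gene, held 4.95% to 8.62% of the TPM of all 4 and had a mean of 20.4 ± 8.26 rescaled TPM (SD, n = 6).

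**Figure D2:**
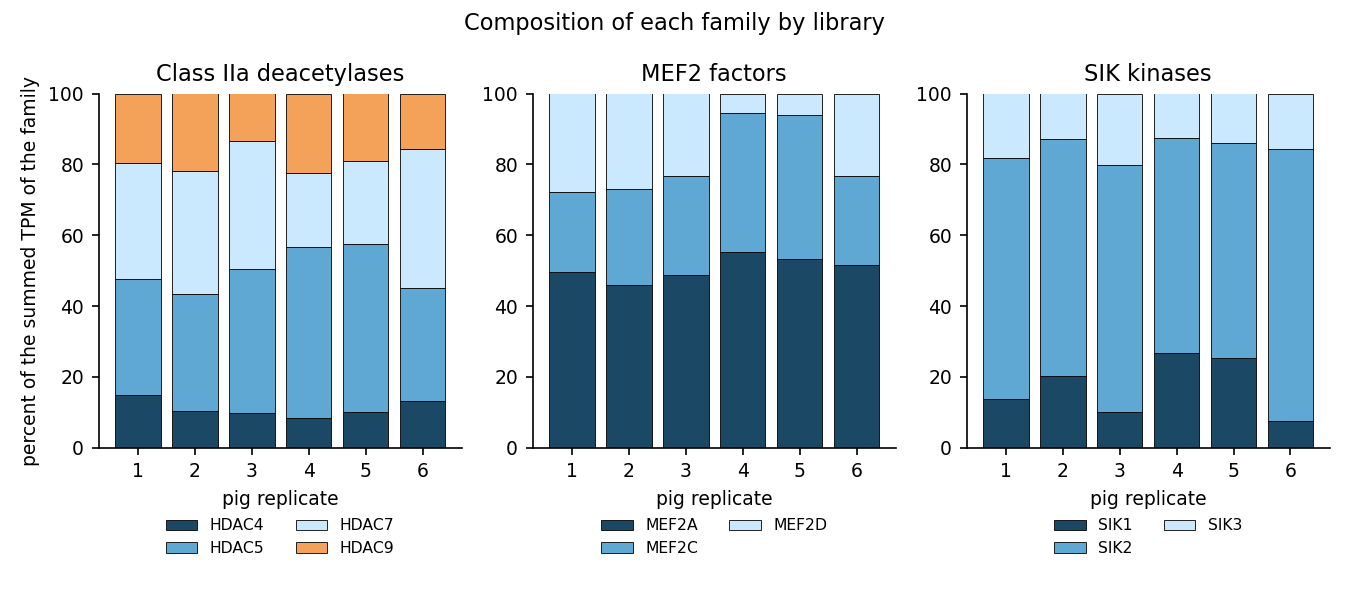
Share of the summed TPM of each family (vertical axis, percent) held by each gene, stacked, in pig replicates 1 to 6 (horizontal axis), with 1 panel for each family. In replicates 4 and 5 MEF2D made up 5.64% and 6.10% of its family, HDAC5 48.3% and 47.5% and SIK1 26.8% and 25.3% of theirs.

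The log2 ratio of each of the 9 neighbouring pairs in the order of levels was tested over the 6 libraries. The order came from the means of the same libraries, so neighbours lie close by construction. A pair that does not pass is therefore not shown to be equal. By an exact two-sided sign-flip permutation test on log2(rescaled TPM + 1), 0 of the 9 pairs passed a Benjamini-Hochberg adjusted threshold of 0.05, and 1 of 9 reached an unadjusted p under 0.05. That pair was MEF2A over MEF2C, with a mean log2 ratio of 0.76 ± 0.29 (SD, n = 6), higher in 6 of 6 libraries, an exact p of 0.03125 and an adjusted p of 0.281. The smallest p that 6 libraries allow is 0.03125, and at least 6 of the 9 pairs must reach it before any passes the adjustment. SIK2 and MEF2A exchanged places, with SIK2 the higher in 3 of 6 libraries and a mean log2 ratio of -0.07 ± 0.42 (SD, n = 6). By mean deposited TPM MEF2D stood in rank 4, HDAC7 in rank 5 and HDAC5 in rank 6, and SIK3 stood before HDAC9. Without replicates 4 and 5 the mean log2 ratio had the opposite sign in 5 of the 9 pairs, SIK2 over MEF2A, HDAC5 over HDAC7, HDAC7 over MEF2D, HDAC9 over SIK3 and SIK3 over SIK1, none of them past the threshold with all 6. Of all 45 pairs of the 10 genes, 26 kept one order in all 6 libraries. The steadiest pair was MEF2A and HDAC5, where MEF2A was 1.58-fold to 2.41-fold higher and the SD of the log2 ratio was 0.21. The least steady was MEF2D and SIK1, with an SD of 1.55.

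The families were then set against each other by their summed rescaled TPM. The MEF2 factors summed to 315, 370.2, 297, 162, 128 and 312 in replicates 1 to 6. The class IIa deacetylases summed to 257, 214, 175, 95.8, 90.5 and 224, below the MEF2 factors in every library. The SIK kinases summed to 239, 327, 198, 111, 68.5 and 267, also below the MEF2 factors in every library. MEF2A, whose RefSeq model is partial, held 45.9% to 55.3% of the MEF2 sum, and SIK2 60.6% to 76.7% of the SIK sum. MEF2C and MEF2D together, without MEF2A, lay below both other sums in every library. The direction of both ratios to the MEF2 factors therefore depends on MEF2A and is not a trait of each MEF2 gene.

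Summed class IIa transcripts were 0.579-fold to 0.816-fold those of the MEF2 factors, a mean log2 ratio of -0.60 ± 0.20 (SD, n = 6), with an exact sign-flip permutation p of 0.03125 and 0.0469 after adjustment over the 3 family ratios. Summed SIK transcripts were 0.536-fold to 0.883-fold those of the MEF2 factors, a mean log2 ratio of -0.47 ± 0.27 (SD, n = 6), with an exact permutation p of 0.03125 and an adjusted p of 0.0469. Both passed the threshold at the smallest p that 6 libraries allow. The class IIa sum was above the SIK sum in 2 libraries and below it in 4, from 0.655-fold to 1.32-fold, with a mean log2 ratio of -0.12 ± 0.34 (SD, n = 6) and an exact permutation p of 0.4375. With 1 library left out the smallest p becomes 0.0625, so no ratio can pass on 5 libraries.

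**Figure D3:**
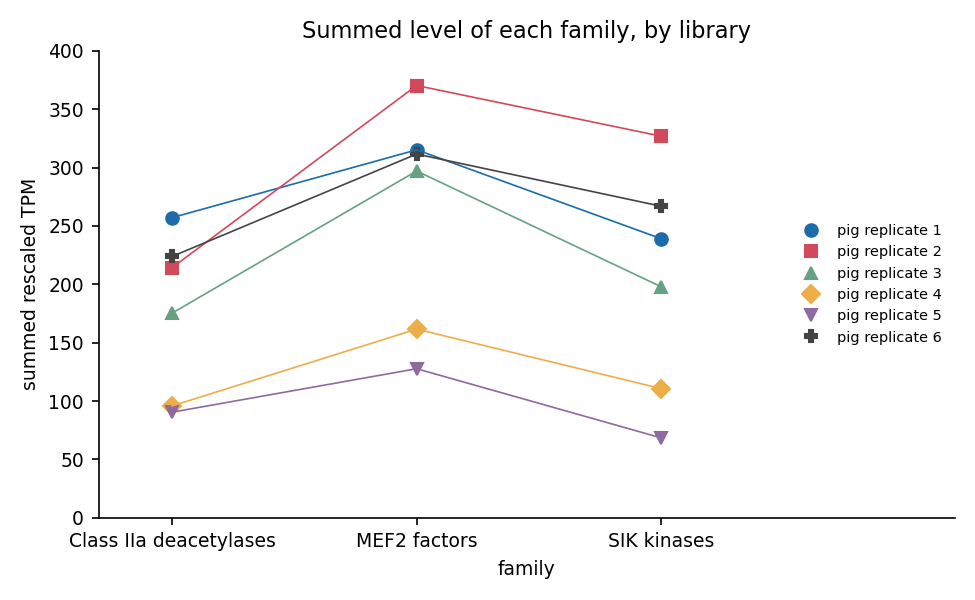
Summed rescaled TPM (vertical axis, from 0) of the 4 class IIa deacetylases, 3 MEF2 factors and 3 SIK kinases (horizontal axis), with 1 line for each pig replicate. Every line peaks at the MEF2 factors, and replicates 4 and 5 lie below the other 4 lines in all 3 families.

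Replicates 4 and 5 stood apart through their low share of named nuclear TPM, and the differences from the other 4 libraries are given as a description with no test. On log2(rescaled TPM + 1), the median over 10189 named nuclear genes with a mean of at least 1 deposited TPM was -0.46, with quartiles of -1.01 and 0.01, so a value is best read against -0.46 and not against 0. All 10 members passed this filter on the mean over all libraries. HDAC4, HDAC7, HDAC9, MEF2D, SIK1 and SIK3 averaged under 1 deposited TPM in replicates 4 and 5 and passed through the other libraries, which the filter favours, so neither the count nor the median below is a test. Their median was -1.24, and 9 of 10 lay below the median of all genes. Marker sums of other cell types were lower in replicates 4 and 5 as well. Stromal markers summed to 5208 and 5449 against 8202 to 15393, and those of smooth muscle and pericytes to 626 and 699 against 847 to 1235. Macrophage markers summed to 364 and 215 against 459 to 599, and lymphoid markers to 70.0 and 57.0 against 78.8 to 152. Single genes did not all follow these sums. TAGLN, the highest smooth muscle and pericyte marker, was 347 and 269 against 238 to 294. RGS5, CNN1, LUM, PDGFRA, MRC1, CD163, CD2, CD3D, CD3E and MS4A1 overlapped the other libraries in replicate 4, replicate 5 or both. The remaining markers of these lists lay below the other libraries. Adipocyte markers overlapped by sum, at 28215 and 36791 against 20584 to 35599, with FABP4 the largest part at 20000 and 28926. PLIN1, LIPE and PNPLA2 lay below all the other libraries, CIDEC lay above them, and FABP4, ADIPOQ, LPL and PLIN4 overlapped. Each sum weighs its highest genes most. Median differences over the unfiltered genes of a list were -0.30 for adipocyte, -0.46 for lymphoid and -0.72 for stromal markers. They were -0.89 for macrophage and -1.03 for smooth muscle and pericyte markers. The part of these markers in the members' levels was not tested.

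Of the 10, MEF2D had the largest difference, -3.13. HDAC7 at -1.85, SIK3 at -1.76, SIK2 at -1.74 and HDAC4 at -1.47 followed. Nearer to the median of all genes were MEF2A at -1.01, HDAC9 at -0.92 and HDAC5 at -0.73. MEF2C at -0.52 and SIK1 at -0.42 lay close to the median of all genes. When each library was instead scaled to a common median, MEF2C and SIK1 had log2 ratios of mean levels of -0.0058 and -0.026, and HDAC9, MEF2C and SIK1 in replicates 4 and 5 overlapped the other libraries. On that scale MEF2D was still apart, at 11.6 and 10.3 in replicates 4 and 5 against 63.9 to 86.6.

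**Figure D4:**
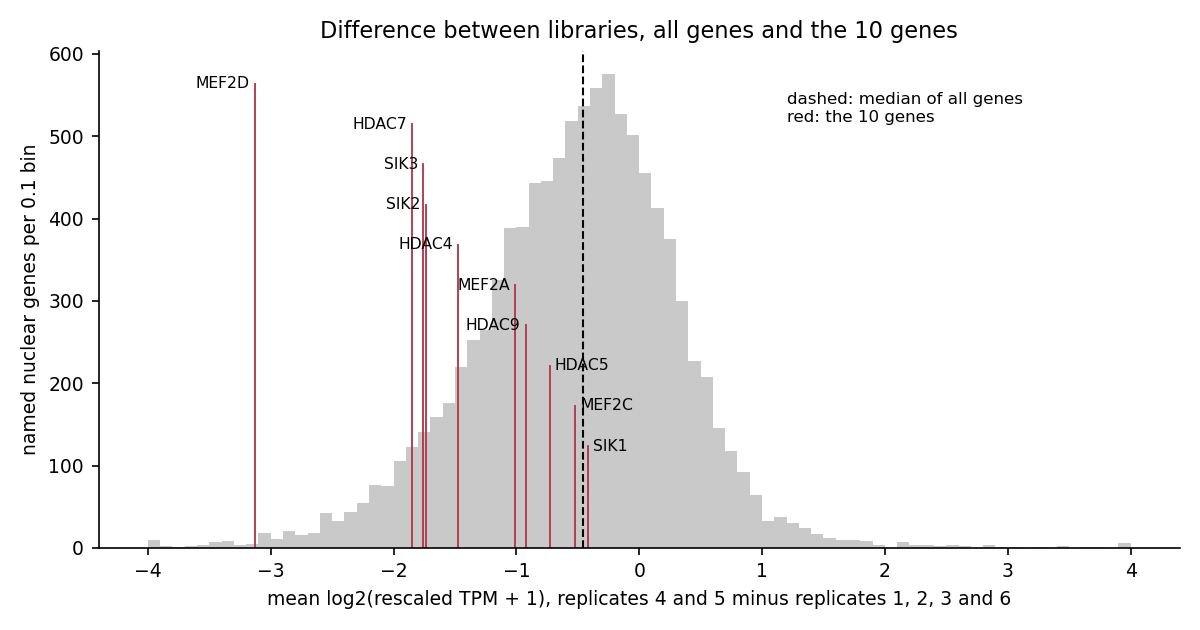
Histogram of the mean log2(rescaled TPM + 1) of replicates 4 and 5 minus that of replicates 1, 2, 3 and 6 (horizontal axis) over 10189 named nuclear genes (vertical axis, genes per bin of 0.1, with values beyond 4 in either direction placed in the end bins). The dashed line is the median of all genes at -0.46, the red lines mark the 10 genes at heights set only for legibility, and MEF2D at -3.13 is the farthest from the median.

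The difference between the libraries also followed transcript properties over all genes. Over the 9415 genes with a RefSeq model (92.4% of 10189), Spearman's rho of the difference was -0.318 with the length of the longest transcript and -0.168 with its GC content, as descriptions across genes that share the same 6 libraries. The median difference was -0.17 in the shortest tertile and -0.72 in the longest, which began at 4890 bases. The longest tertile held 6 of the 10 members, MEF2D among them with 6149 bases and 57.9% GC, and the part of length in their differences was not tested.

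Over all 6 libraries the median CV of the 10 genes was 0.504 in rescaled TPM, against 0.297 over the 10189 genes. Without replicates 4 and 5 it was 0.161, against 0.170. SIK1 had the largest CV without them, 0.630, HDAC4 had 0.342 and HDAC9 0.315. The remaining 7 lay between 0.0369 for SIK3 and 0.206 for SIK2.

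The other genes of the pathway came from 11 lists and are given by their rescaled TPM as a description, since the libraries form 1 group and no test between conditions exists. In the NCoR complex, 3 genes are described, from TBL1XR1 at a mean of 129 down to NCOR1, a scaffold that binds HDAC3, at 74.96. NCOR1 was 92.1 to 112 in replicates 1, 2, 3 and 6 and 24.3 and 19.3 in replicates 4 and 5. TBL1XR1 showed no such gap, at 98.01 to 157 in the former and 151 and 124 in the latter. The 14-3-3 proteins, 4 of 7 found, were led by YWHAZ at 1201 ± 154 (SD, n = 6), with YWHAH the lowest at 65.5.

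In the LKB1 complex CAB39 was the highest at 157 and STRADA, the pseudokinase that activates LKB1, the lowest at 28.3. Among the 10 other LKB1 substrate kinases listed, NUAK1 was the highest at 119 and BRSK2 the lowest at 0.127. The 3 SIK genes held 19.3% to 41.0% of the summed TPM of these 10 and themselves, 13 listed kinases that LKB1 activates. Of the protein kinase D and calmodulin kinases, which also phosphorylate class IIa deacetylases, CAMK2D was the highest at 178 and CAMK4 the lowest at 2.71. Protein kinase A was led by its regulatory subunit PRKAR2B at 575 ± 113 (SD, n = 6), the main subunit of fat, with PRKAR1B the lowest at 3.66.

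Of the CRTC and CREB list 5 of 6 genes were found, with ATF1 the highest at 174 and CRTC1 the lowest at 12.3. CRTC2, the coactivator that SIK kinases phosphorylate in liver, was 39.8 to 46.8 in replicates 1, 2, 3 and 6 and 3.00 and 2.86 in replicates 4 and 5. In the calcineurin list, named for the phosphatase that dephosphorylates NFAT and MEF2, 4 of 5 were found, from PPP3R1 at 134 to PPP3CB at 76.4. The 6 other MEF2 partners ran from the acetyltransferase EP300 at 85.2 to the repressor CABIN1 at 16.4.

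The 9 genes under MEF2 or class IIa control were led by JUN at 428 ± 154 (SD, n = 6), and PPARGC1A, the coactivator of mitochondrial genes, was the lowest at 0.653 ± 0.318 (SD, n = 6). The difference of replicates 4 and 5 lay below the median of all genes in 8 of these 9, 5 of 5 of the CRTC and CREB list and 5 of 6 other MEF2 partners. The same held for 4 of 7 other deacetylases, 2 of 3 genes of the NCoR complex, 2 of 4 of the 14-3-3 proteins and 1 of 3 of the LKB1 complex. It held for 6 of 10 other LKB1 substrate kinases, 4 of 7 of the protein kinase D and calmodulin kinases, 2 of 6 of protein kinase A and 1 of 4 of the calcineurin list. The lists were not filtered by level, unlike the genes behind the median. PPARGC1A, NUAK2, BRSK1 and PRKAR1B, with means of 0.146, 0.790, 0.134 and 0.756 deposited TPM, counted as below, and BRSK2 and CAMK4, also under 1, did not. At such levels the pseudocount weighs on the difference, so these counts are no test. Among the 9, the exception was SLC2A4, at 73.6 and 68.3 in replicates 4 and 5 and 19.8 to 49.1 in the other 4. NR4A1, an orphan nuclear receptor gene induced by MEF2 in several cell types, was 123, 217, 39.2, 9.85, 14.7 and 105 in replicates 1 to 6. Its highest library was replicate 2, as for SIK1. PCK1, which makes glyceroneogenic PEPCK in fat, was 19.4, 92.2, 8.24, 7.58, 6.20 and 10.9, again highest in replicate 2. CREB1 was also highest there, at 102, and JUN was 644 there and 601 in replicate 1. The other 6 of the 9 genes, KLF2, KLF4, FOXO1, FOXO3, PPARGC1A and SLC2A4, were not highest in replicate 2, and SLC2A4 was lowest there at 19.8. Of the 10 members, SIK2, MEF2A, MEF2C and MEF2D were highest in replicate 2 besides SIK1. Genes of other lists, such as HDAC1, HDAC8, TBL1XR1, GPS2 and YWHAZ, were highest there too. The share of all named nuclear genes that were highest in replicate 2 was not determined. A peak there is therefore not shown to be particular to any of these genes. Replicate 2 further had the highest sums of endothelial (1508), smooth muscle and pericyte (1235), lymphoid (152) and skeletal muscle (15.8) markers. The part of these markers in the SIK1 level was not tested.

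**Figure D5:**
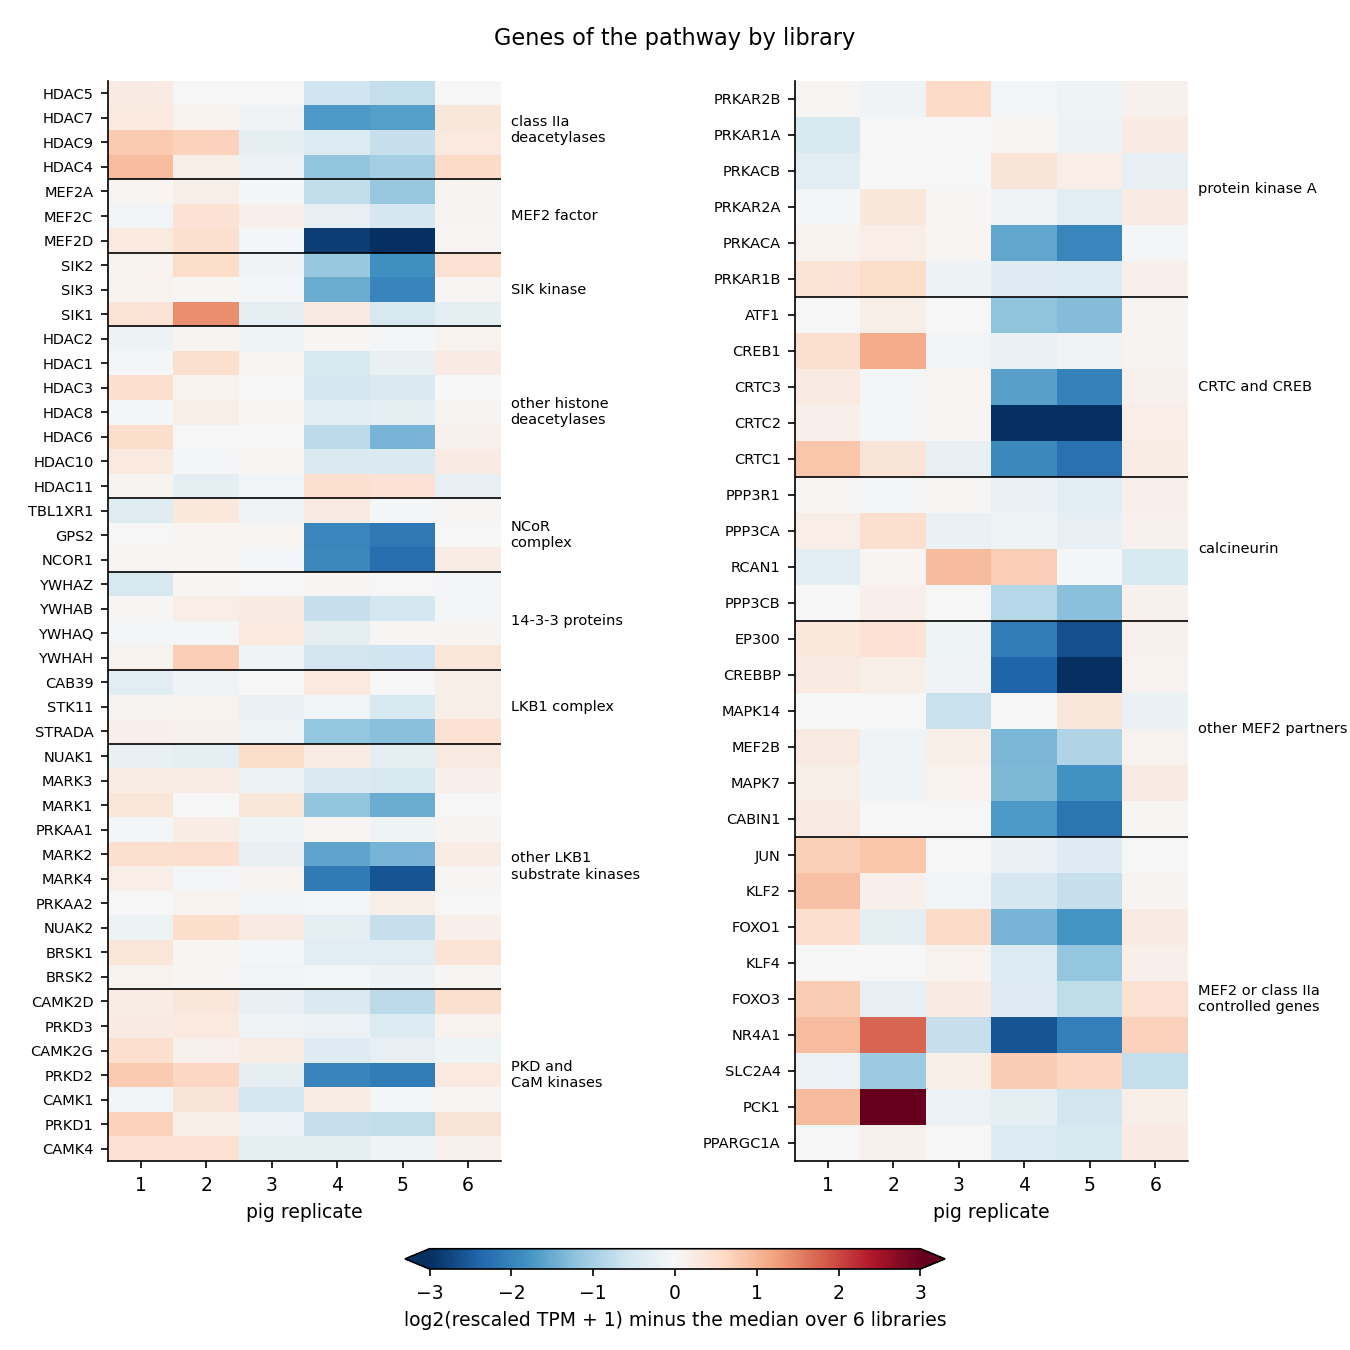
Each cell is the log2(rescaled TPM + 1) of a gene (row) in a pig replicate (column) minus its median over the 6 libraries, on a colour scale from -3 (blue) to 3 (red), with values beyond it in the end colours. Columns 4 and 5 are darkest blue for MEF2D, CRTC2 and CREBBP, SLC2A4 is red there, and SIK1, CREB1, NR4A1 and PCK1 are reddest in replicate 2.

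The genes whose pattern over the 6 libraries was most like each of the 10 were ranked by the SD of the difference in log2(rescaled TPM + 1), over 10179 other named nuclear genes. All such patterns share the same 6 libraries and the same low share of named genes in replicates 4 and 5. For the kinases they were SYNJ1, CEP290 and SEPTIN3 beside SIK2 (SD from 0.11), NCOA1, RAPGEF1 and EFCAB14 beside SIK3 (from 0.068), and MACROD2, SNAPC1 and ARHGAP15 beside SIK1 (from 0.12). For the deacetylases they were TSKU, SCAMP4 and ADAP1 beside HDAC5 (from 0.053), ZNF592, IL23R and CUL9 beside HDAC7 (from 0.072), RPGRIP1L, TRUB1 and DLC1 beside HDAC9 (from 0.078), and TMEM201, SEMA6C and DAGLA beside HDAC4 (from 0.063). For the MEF2 factors they were PEX5, TAF8 and SENP1 beside MEF2A (from 0.045), DPP3, SSB and ZNF696 beside MEF2C (from 0.028), and HCFC1, CIC and ARID1A beside MEF2D (from 0.14). MEF2D and SIK1 had the least close neighbours, and no other member was among the first 3 because the 10 were left out of the ranking. The median SD over all genes ran from 0.42 for HDAC5 to 1.42 for MEF2D.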

How the data were processed

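The authors made stranded libraries from total RNA after removal of ribosomal RNA, for Illumina sequencing. Values are TPM per Ensembl gene, deposited by the authors as 1 table per species. The submitters' processing notes name Kallisto 0.43.0 and Sscrofa11.1. The annotation release and strand setting are not given in the sources used here. TPM keep no read numbers, so depth is unknown. The table of 2 rat libraries pairs no IDs with names and was not used.

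Symbols came from a pig name table (57.4% of IDs named). Rescaled TPM set the named nuclear genes of a library, without the 13 mitochondrial genes, to a total of 1000000. Ratios of single genes used a pseudocount of 1 and sums none, with exact two-sided sign-flip permutation tests and Benjamini-Hochberg adjustment over 9 neighbouring pairs or 3 family ratios. The labels name the libraries only as replicates, so p-values measure the spread between these libraries. Other sets used a mean of at least 1 deposited TPM. The text names the 10 members, the highest and lowest gene of each of 11 pathway lists, and the 3 genes most alike to each member. Other genes, and those of 7 marker lists, were named after their values were seen. One gene of a pathway list is not reported here. Members and lists were chosen with earlier results of these data known. Alternatives were other scales, pseudocounts, thresholds and libraries left out. Coordinates are 1-based RefSeq models on Sscrofa11.1, the longest transcript standing for each gene, and promoters were read from that genome. Scripts were tested on simulated data and used Python 3.11.15, numpy 2.4.6, pandas 2.3.3, pysam 0.24.0 and matplotlib 3.10.9.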

Additional observations from a re-analysis of the deposited data

Results flagged for a closer look

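Over 50 sets of 6 values examined for a single library far from the others by Dixon's 95% limit, 2 were found. Chance alone gives about 1 in 20 sets, so 2 of 50 are no excess over chance. The sets share the same 6 libraries and are not independent. SIK1 stood at 66.4 rescaled TPM in replicate 2 against 17.3 to 32.7 in the other 5 libraries, a gap of 0.687 of the whole range. PCK1 stood at 92.2 rescaled TPM in the same library against 6.20 to 19.4, a gap of 0.847 of the range.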

How the results depend on the processing

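No paired analysis was possible because the pig libraries form 1 group and share replicate numbers only with the unused rat libraries. With each library left out in turn, the mean log2 ratio ran from -0.656 to -0.557 for class IIa deacetylases against MEF2 factors, from -0.531 to -0.387 for SIK kinases against MEF2 factors and from -0.228 to -0.0257 for class IIa deacetylases against SIK kinases, where 5 libraries cannot pass the threshold. The 3 ratios kept their direction and their side of the threshold in deposited TPM and with a pseudocount of 1, and their direction without replicates 4 and 5. In deposited TPM with a pseudocount of 1, HDAC9 over SIK3 turned from 0.12 to -0.0021 and SIK3 over SIK1 from -0.013 to 0.135, neither past the threshold on either scale. Without a pseudocount both scales give the same ratios, 0.14 and -0.020, so these turns depend on the pseudocount. Without replicates 4 and 5, where 4 libraries cannot pass, SIK2 over MEF2A turned from -0.07 to 0.18, HDAC5 over HDAC7 from 0.33 to -0.044, HDAC7 over MEF2D from 0.34 to -0.086, HDAC9 over SIK3 from 0.12 to -0.15 and SIK3 over SIK1 from -0.013 to 0.43, and MEF2D over HDAC9 went from 0.37 to 1.10. At over 1 TPM, 4 members were detected in all libraries. In deposited TPM the mean of all 10 members moved, and the CV of 9. The CV of 8 moved without replicates 4 and 5, and that of 4 under median-centring. Without replicate 2 the CV of SIK1 was 0.283. Of 30 genes most alike to the members, 27 remained without the filter. The files hold no depth, so the counting error of low values such as HDAC4 in replicate 4 cannot be given.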
